A study of Mus musculus with 24 samples.

Results

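The P2 receptors studied here are 8 genes for the receptors that sense extracellular ATP and related nucleotides, measured in mouse dorsal root ganglia, the clusters of sensory neuron cell bodies beside the spinal cord. They comprised 6 genes for P2X channels (P2rx2, P2rx3, P2rx4, P2rx5, P2rx6 and P2rx7) and 2 genes for P2Y receptors (P2ry1 and P2ry2), out of 20782 genes in the expression table. They were taken by name from that table, which holds 15 P2 receptor genes in all, and the choice named P2rx3 for staying high in culture while other nociceptor genes fell. For that reason the culture values of P2rx3 are given as a description with no test. Those of the other nociceptor genes are a description as well.

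RNA was sequenced from 24 libraries, 3 in each of 8 groups. The embryonic groups were lumbar ganglia at E12.5 and at E17.5. The injury groups were adult L4 and L5 ganglia of animals with a peripheral lesion (called conditioned in the series' design) or a sham operation. The culture groups were adult lumbar ganglia that had been dissociated, plated at low density on laminin in Neurobasal-A with B-27, and collected 6, 12, 24 or 36 h later. The labels state isolation by cell sorting and 10 ng of input RNA in 1 text shared by all libraries, and do not say if intact ganglia were sorted too. The sources used here name no strain, sex, lesioned nerve or time from lesion to collection, and no library is tied to a named animal, so the spread between libraries may be partly technical. Library numbers were 69, 70 and 123 for sham and 84, 86 and 87 for E12.5. They were 336 to 338 for E17.5 and 339 to 350 for culture. Whatever goes with these numbers cannot be told apart from the group between embryonic stages, between sham and E17.5, or between sham and culture. Dissociation and plating also go with the culture groups.

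P2X receptors are channels of 3 subunits that open when ATP binds and let sodium and calcium in. P2Y receptors are coupled to G proteins, and those encoded by P2ry1 and P2ry2 act through Gq, the former preferring ADP and the latter ATP or UTP. In sensory ganglia the P2rx3 and P2rx2 subunits form the channels of nociceptors that sense ATP released by damaged or stretched tissue, while P2rx4 and P2rx7 are known for their roles in immune and glial cells.

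By the GENCODE M21 annotation of mm10, P2rx7 (chr5:122643911-122691432) and P2rx4 (chr5:122707544-122729738) are neighbours on the plus strand, with 16112 bases between the end of P2rx7 and the start of P2rx4. The other members lie apart, P2rx2 at chr5:110339812-110343212, P2rx3 at chr2:84998583-85037462, P2rx5 at chr11:73160421-73172685, P2rx6 at chr16:17561885-17577800, P2ry1 at chr3:61002795-61008982 and P2ry2 at chr7:100996568-101012866. Promoter sequences (RefSeq, GRCm38.p6, 250 bases before to 50 after a start site) were matched for 5 of the 8 members. Those of P2rx7, P2rx4 and P2ry1 are shown because these 3 genes moved with time in culture, the neighbours P2rx7 and P2rx4 upward and P2ry1 downward. All 3 lie on the plus strand and run 5′ to 3′, at chr5:122643677-122643976, chr5:122707294-122707593 and chr3:61002535-61002834, and capitals mark matches to the searched motifs.
P2rx7: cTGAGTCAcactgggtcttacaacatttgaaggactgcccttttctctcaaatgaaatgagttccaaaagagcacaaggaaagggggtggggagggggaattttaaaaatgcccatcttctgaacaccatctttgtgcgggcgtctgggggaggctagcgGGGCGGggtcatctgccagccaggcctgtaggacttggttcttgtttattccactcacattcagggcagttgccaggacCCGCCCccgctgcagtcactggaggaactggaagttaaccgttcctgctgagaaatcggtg
P2rx4: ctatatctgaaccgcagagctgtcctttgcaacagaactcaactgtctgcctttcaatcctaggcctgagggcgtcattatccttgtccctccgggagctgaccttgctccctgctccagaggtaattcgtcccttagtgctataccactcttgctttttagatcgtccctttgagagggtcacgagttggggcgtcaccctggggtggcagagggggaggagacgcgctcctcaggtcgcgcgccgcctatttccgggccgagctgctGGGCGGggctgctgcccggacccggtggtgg
P2ry1: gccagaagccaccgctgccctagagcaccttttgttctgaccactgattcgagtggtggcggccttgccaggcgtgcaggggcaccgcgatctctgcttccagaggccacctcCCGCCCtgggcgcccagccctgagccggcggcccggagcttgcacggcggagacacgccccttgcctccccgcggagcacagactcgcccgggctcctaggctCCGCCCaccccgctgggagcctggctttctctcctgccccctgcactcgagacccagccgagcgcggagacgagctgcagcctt

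The motifs searched on both strands were an AP-1 site (TGANTCA), a CRE (TGACGTCA), a Runx site (TGTGGT), a GC box (GGGCGG) and a Stat site (TTCNNNGAA). P2rx7 has a pair of promoter entries. The one shown held an AP-1 match, TGAGTCA, with its first base at position -249 from the start site, and GC boxes at -90 and -11, while the other (chr5:122650133-122650432) held no match to the 5 motifs. The P2rx4 promoter held a GC box at position 20 after the start site, and the P2ry1 promoter held GC boxes at -137 and -34. Among 32817 promoters of the same length, 7.81% held the AP-1 motif, 35.6% the GC box, 16.8% the Runx motif, 8.29% the Stat motif and 1.79% the CRE. These matches describe letters only.

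The libraries held 3103838 to 25732182 recovered reads each. Values are normalized reads, that is, reads divided by 1 factor per library, and levels of different genes are compared only per kb of annotated exon. Markers of sensory neurons were high in all groups, with a summed level of 36602 at E12.5, 156098 after sham surgery and 96963 to 59339 in culture. The E12.5 libraries held spinal cord markers at a summed level of 1220, against 65.6 at E17.5, and the 12 macrophage markers summed to 1614 after sham surgery, 4243 after lesion and 343 to 543 in culture. Their part in the differences given next was not tested, and in these bulk libraries fewer cells of a type and less RNA per cell cannot be told apart.

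**Figure D1:**
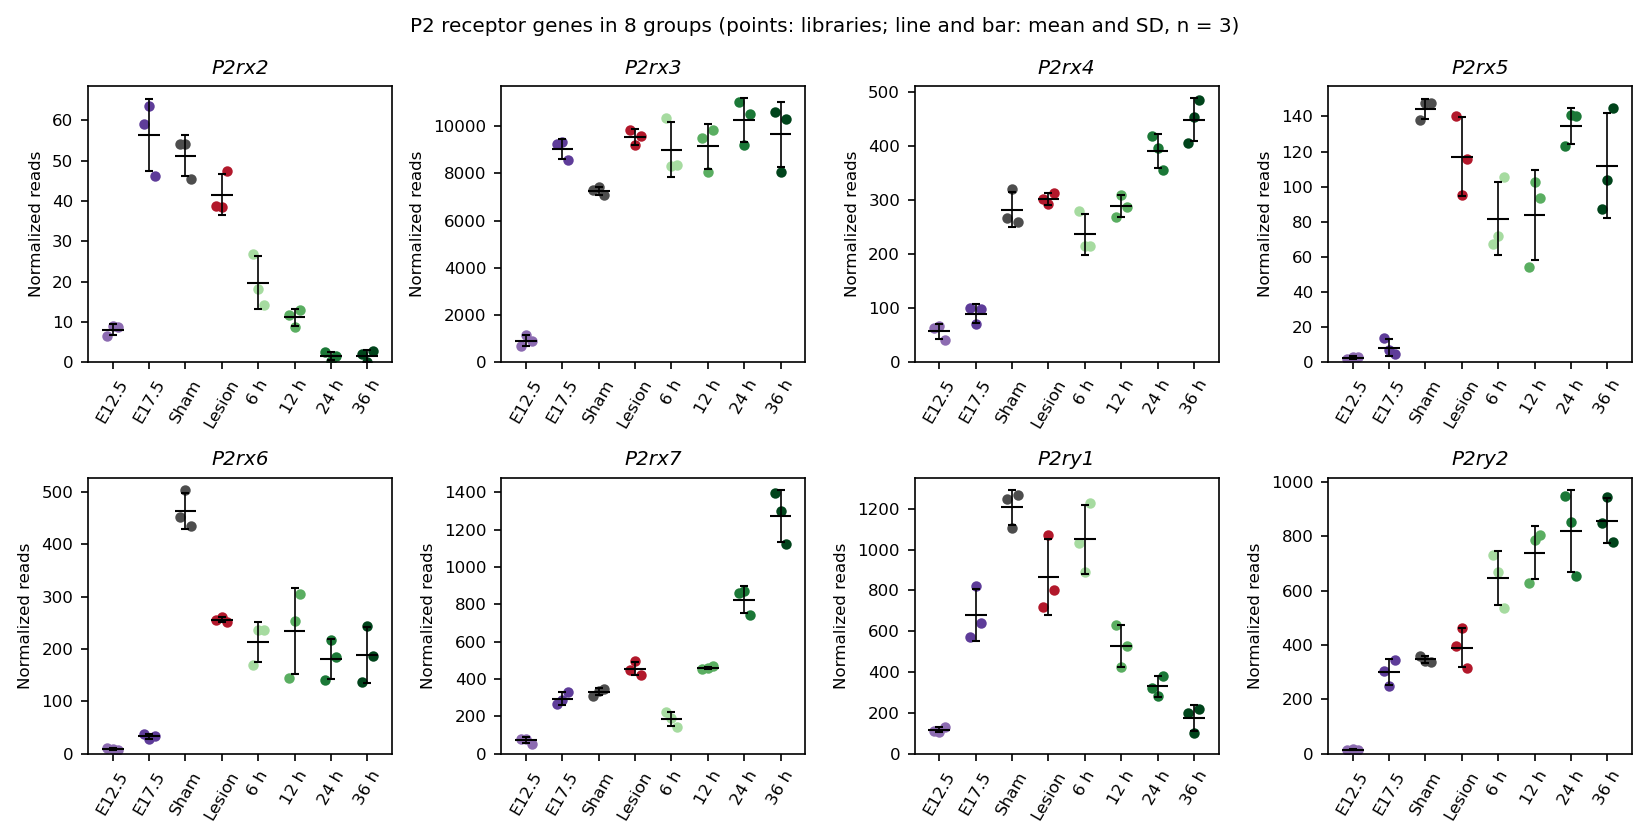
Normalized reads of the 8 receptor genes (y axis) in the 8 groups (x axis). Points are libraries, and lines with bars are means and SD (n = 3). P2rx3 has means of 7256 to 10249 from E17.5 on, P2rx7 rises from 185 to 1273 in culture, and P2ry1 and P2rx2 descend there.

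Tests used limma on log2(value + 1), adjusted by Benjamini-Hochberg over all genes of a fit, and a gene was called at an adjusted p under 0.05. From E12.5 to E17.5, 6 of the 7 members tested were called higher, where 31.1% of 14550 genes were called higher and 31.9% lower. P2rx4 was not called, and P2rx5 was too low for the filter of a value of 10 in 3 libraries. P2rx2 and P2rx6 passed that filter only through their E17.5 values, so this count is a description. In the same comparison 9 of 10 neuronal markers were higher and 8 of 8 markers of dividing cells lower (summed level 24075 at E12.5 and 4141 at E17.5), and their part was not tested. After lesion, 2 members were higher, 2 lower and 4 not called, where 20.9% of 14556 genes were higher and 20.2% lower, and the median log2 difference was -0.10 over the members and -0.01 over all genes.

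Between 6 and 36 h in culture, 3 of the 7 members other than P2rx3 were higher and 2 lower, where 25.3% of 15006 genes went each way. An F test over the 4 times called 4 of these 7 (P2rx2, P2rx4, P2rx7 and P2ry1), against 45.7% of genes. P2rx2 passed the filter of the culture fit only through its 6 and 12 h values, so its part in these counts is a description. At 6 h in culture compared with sham ganglia, 1 of the 7 was higher and 4 were lower, where 23.3% of 15935 genes were higher and 24.5% lower. In sham ganglia compared with E17.5, 4 of the 8 members were higher and 4 not called, where 28.1% were higher and 28.5% lower. P2rx5, 1 of the 4 that were higher, passed the filter only through adult libraries, so its call is a description.

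P2rx3 encodes the subunit that defines ATP-gated channels of nociceptors, and it was the most abundant member per kb in all groups, at 2602 normalized reads per kb in sham ganglia, where P2ry1 followed at 281 and P2rx6 at 116. Its normalized reads were 701, 1158 and 888 at E12.5, and 9233, 9333 and 8555 at E17.5. All E17.5 libraries lay far above all E12.5 libraries, a 9.87-fold difference of means (log2 3.33 ± 0.18 SE, limma adjusted p = 1.56e-06). Sham ganglia held 7276, 7420 and 7073, below every E17.5 library, although the difference was not called (log2 -0.32 ± 0.14 SE, limma adjusted p = 0.0576). It was called lower with TMM scaling (0.0453), edgeR (0.0496), DESeq2 (0.0472) and a fit of only these 6 libraries (0.00910).

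After lesion, P2rx3 was 9856, 9185 and 9563. Each lesion library lay above each sham library, a rise of 1.31-fold (log2 0.39 ± 0.06 SE, limma adjusted p = 3.15e-04). With 1 spread over all 24 libraries the adjusted p was 0.0564. Of 26 nociceptor genes, 3 were higher, 19 lower and 4 not called after lesion, where 20.9% of all genes were higher and 20.2% lower. Among them were, higher, Gfra1, the GDNF co-receptor (log2 1.38 ± 0.10 SE), and, lower, Tac1, the substance P precursor (log2 -1.25 ± 0.12 SE).

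In culture, P2rx3 stood at 10336, 8292 and 8367 at 6 h, and at 9487, 8077 and 9855 at 12 h. It reached 11001, 9214 and 10531 at 24 h, and 10580, 8062 and 10300 at 36 h. These 4 ranges overlapped one another, the log2 difference between 36 and 6 h was 0.10 ± 0.14 SE, and all 12 culture values lay above the 3 sham values. By level per kb, P2rx3 ranked 85 at 6 h and 61 at 36 h among 19529 genes, against 133 in sham ganglia, 64 at E17.5 and 1413 at E12.5.

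The nociceptor genes around it moved otherwise. Of the 26, 23 were lower at 36 h than at 6 h, 1 was higher and 2 were not called (Ret and Gfra1), where 25.3% of all genes went each way. The median log2 difference of the 26 was -2.10, against 0.02 over all genes tested. The value of P2rx3 lay above 25 of the 26 and below Gfra3 (log2 1.32 ± 0.17 SE). Mrgprd, a receptor of the nonpeptidergic nociceptors in which P2rx3 is also typically found, had a mean of 3765 at 6 h and 49.97 at 36 h (log2 -6.23 ± 0.19 SE). Mrgpra3, an itch receptor, changed by -5.47 ± 0.69 SE and Lpar3, a lysophosphatidic acid receptor, by -5.12 ± 0.25 SE on the log2 scale. Gfra3, Gfra1 and Ret are subunits of receptors for GDNF family ligands. The position of P2rx3 in this order was part of the choice of the genes and is not a test. The fall of other nociceptor genes in culture was named in that choice too. The counts and values of the 26 genes given here are therefore a description. Mrgpra3 (132.9 at 6 h, 3.30 at 36 h) and Mrgprx1 (137 and 3.70) passed the filter only with values of times before 36 h. Their part in these counts is a description for that reason too.

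**Figure D2:**
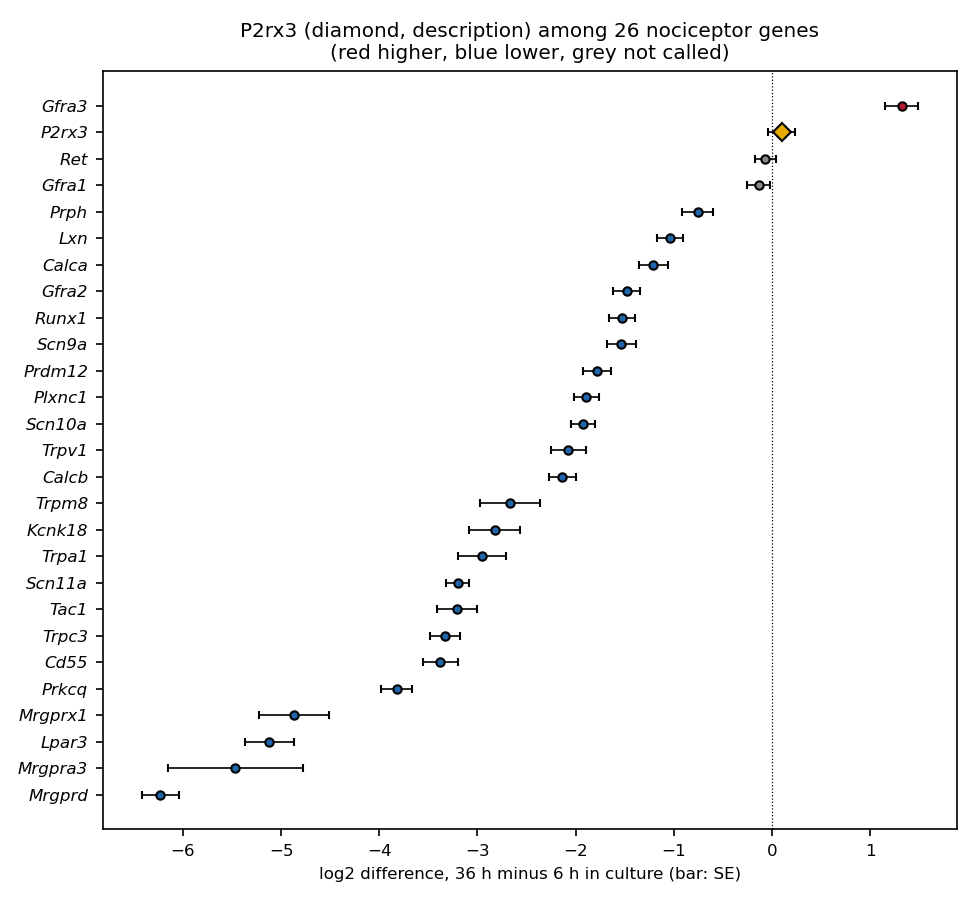
Log2 differences between 36 and 6 h in culture (x axis, limma estimate with SE) of 26 nociceptor genes and P2rx3 (y axis, in order of size). Red is called higher, blue lower and grey not called, and the diamond is P2rx3 at 0.10, given without a test. The other values run from -6.23 to 1.32. The fall of nociceptor genes was named in the choice of the genes, so these calls are a description.

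P2rx2 encodes the subunit that joins P2rx3 in slowly desensitizing channels, and it was scarce throughout. Its normalized reads were 6.59, 8.99 and 8.65 at E12.5, and 59.0, 63.5 and 46.2 at E17.5 (log2 2.66 ± 0.30 SE, limma adjusted p = 8.81e-05). In the embryonic fit it passed the filter only through its E17.5 values, so that call is a description. Sham ganglia held 54.1, 54.1 and 45.3, overlapping E17.5, and lesioned ganglia 38.7, 38.4 and 47.4 (log2 -0.30 ± 0.19 SE, limma adjusted p = 0.217). The lesion and sham ranges overlapped and no difference was called.

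At 6 h in culture P2rx2 was 26.9, 18.1 and 14.1, below all sham libraries (log2 -1.38 ± 0.43 SE, limma adjusted p = 0.0107, and 0.0523 without 6 h replicate 3). It was 11.7, 8.77 and 13.0 at 12 h, 2.46, 0.439 and 1.62 at 24 h, and 2.16, 0 and 2.77 at 36 h. Behind these values stood 74 reads at 6 h, 4 at 24 h and 5 at 36 h, so that the 36 h rate was 8.85% of that at 6 h (exact 95% interval 2.79 to 21.6%, counting error only). The 24 h rate was 4.80% of that at 6 h (1.27 to 12.8%). P2rx2 passed the filter of the culture fit only through its 6 and 12 h values, so its calls between culture times are a description. The decline from 6 to 36 h was called (log2 -3.13 ± 0.67 SE, limma adjusted p = 0.00110), with estimates from -3.50 to -1.89 over the alternatives, all called. The step from 12 to 24 h was called as well (log2 -2.35 ± 0.67 SE, limma adjusted p = 0.0324), but not in 8 of the 12 fits that left out 1 library, among which its adjusted p reached 0.126 without 24 h replicate 2.

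Set against each other per kb, there were 7.63 ± 0.61 P2rx2 normalized reads per 1000 of P2rx3 in sham ganglia, 4.72 ± 0.58 after lesion, 2.34 ± 0.50 at 6 h and 0.171 ± 0.152 at 36 h (SD, n = 3). P2rx3 made up 89.9% of the summed P2X level per kb in sham ganglia, 93.2% after lesion, 97.1% at E17.5, 95.2% at 6 h and 90.2% at 36 h. The remainder changed in makeup. P2rx6 was the largest other share in sham ganglia at 4.01%, while at 36 h P2rx7 held 5.63% and P2rx2 0.0156%.

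**Figure D3:**
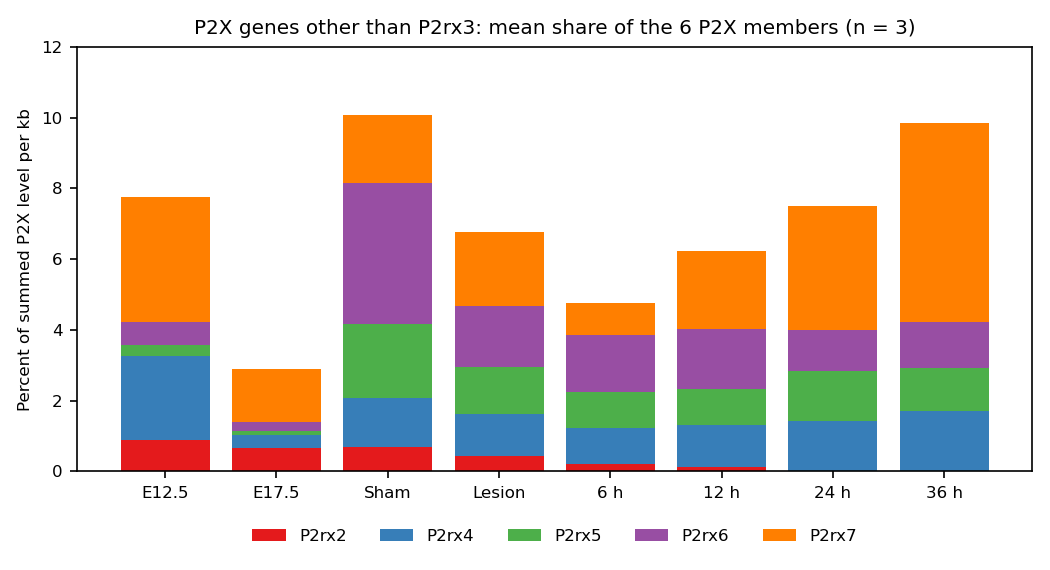
Mean share of the summed P2X level per kb (y axis, percent) held by the 5 P2X genes other than P2rx3, stacked, in 8 groups (x axis, n = 3). P2rx3 fills the rest of each bar to 100% and is not drawn; the P2rx7 band is widest at 36 h.

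P2rx7 encodes a channel known for inflammasome activation in macrophages and for ATP responses of glia, and it rose at every step in culture. Its normalized reads were 222, 190 and 145 at 6 h, 456, 458 and 468 at 12 h, 858, 872 and 742 at 24 h, and 1397, 1298 and 1123 at 36 h. Each time lay wholly above the one before. The 6.86-fold rise from 6 to 36 h had a log2 difference of 2.79 ± 0.15 SE (limma adjusted p = 2.14e-09).

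The first step of P2rx7, from 6 to 12 h, was 1.33 ± 0.15 SE on the log2 scale (limma adjusted p = 1.04e-04), where 5.86% of genes were higher and 4.72% lower and, of the 7 members, P2rx7 alone was called higher and P2ry1 alone lower. The step from 12 to 24 h was 0.83 ± 0.15 SE (limma adjusted p = 0.00237), where 4.82% were higher and 6.74% lower and the called members were P2rx7 and, lower, P2rx2. From 24 to 36 h it was 0.62 ± 0.15 SE (limma adjusted p = 0.0409), where 1.11% were higher and 1.55% lower and the called members were P2rx7 and, lower, P2ry1. The last call was lost with no filter on low values (0.0675) and in 8 of the 12 fits that left out 1 library, with an adjusted p of up to 0.219 without 24 h replicate 3.

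Outside culture, P2rx7 was 81.8, 81.0 and 53.3 at E12.5 and 266, 289 and 333 at E17.5 (log2 2.04 ± 0.21 SE, limma adjusted p = 4.95e-05). It was 312, 336 and 348 in sham ganglia, overlapping E17.5. After lesion it was 450, 494 and 423, each above each sham library (1.37-fold, log2 0.46 ± 0.09 SE, limma adjusted p = 0.00154, and 0.0515 with 1 spread over all 24 libraries). At 6 h in culture it lay below all sham libraries (log2 -0.86 ± 0.16 SE, limma adjusted p = 1.15e-04), where 24.5% of all genes were lower. Lower there were 8 of 12 macrophage, 8 of 9 myelinating Schwann cell, 6 of 7 fibroblast, 6 of 9 satellite glia and 5 of 10 neuronal markers. In each of these lists 1 marker was higher, except 0 for fibroblasts. Of 8 endothelial markers 4 were higher and 1 lower. The part of these cells was not tested.

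Markers of other cells were read beside P2rx7. After lesion 11 of 12 macrophage markers were higher and the summed level was 3390 to 5097, against 1546 to 1658 after sham surgery. In culture the summed level was 307 to 379 at 6 h and 507 to 582 at 36 h, below sham at every time, with 5 of 10 tested markers higher and 1 lower between 6 and 36 h, and none of the 12 was at 0 in all libraries of a group. The remaining 4 tested were not called. The median log2 difference of the 10 was 0.65, against 0.02 over all genes tested. Csf1r, 1 marker of this list that was not picked by a rule, was 26.3 at 6 h and 107 at 36 h (log2 1.99 ± 0.28 SE), against 188 in sham ganglia. Markers of satellite glia summed to 21989 to 24171 at 6 h and 27308 to 31522 at 36 h, with 4 of 9 higher and 3 lower. Of 8 endothelial markers 7 were higher at 36 h, while 6 of 10 neuronal markers were lower and 4 not called. The part of these cells in the P2rx7 values was not tested.

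**Figure D4:**
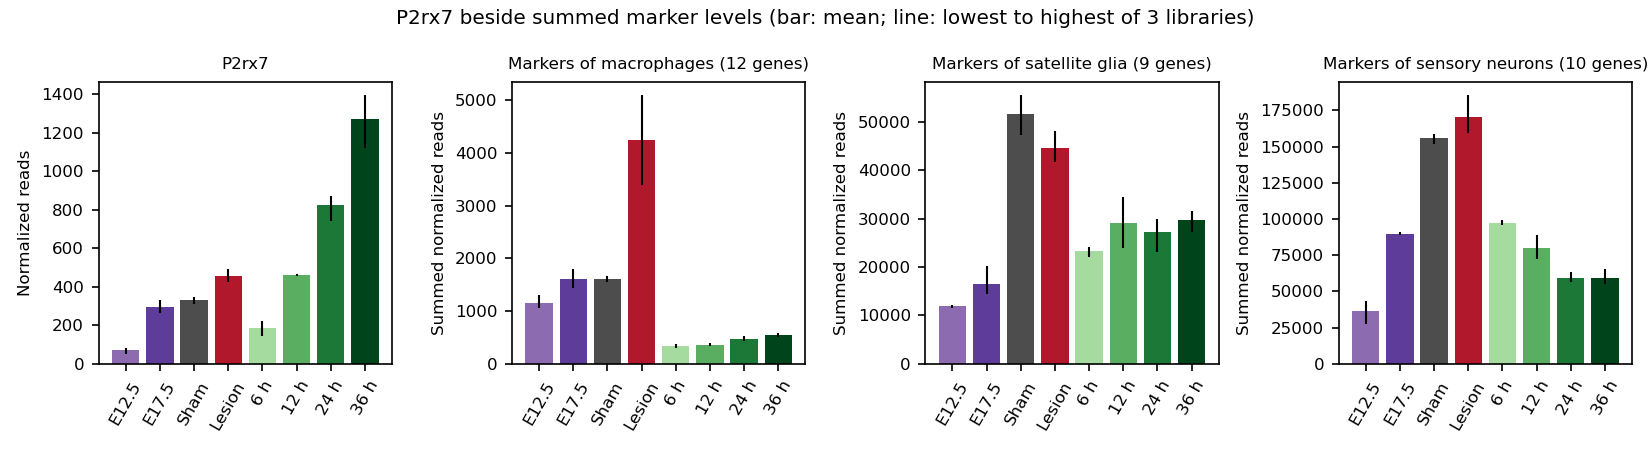
Normalized reads of P2rx7 and summed normalized reads of markers of macrophages, satellite glia and sensory neurons (y axes) in 8 groups (x axis). Bars are means and lines run from the lowest to the highest of 3 libraries. P2rx7 is highest at 36 h, where the macrophage sum is 543, and the macrophage sum is highest after lesion, at 4243.

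P2rx4, the neighbour of P2rx7 and a calcium-permeable channel of neurons, microglia and macrophages that is stored in lysosomes, rose less. It was 280, 215 and 215 at 6 h, 269, 309 and 288 at 12 h, 418, 396 and 356 at 24 h, and 406, 454 and 486 at 36 h. The 36 h libraries lay above all 6 and 12 h libraries and overlapped those at 24 h. The difference between 36 and 6 h was 1.90-fold (log2 0.93 ± 0.15 SE, limma adjusted p = 8.47e-05), and no single step was called. Per kb, the ratio of P2rx7 to P2rx4 was 0.921 ± 0.124 at 6 h and 3.38 ± 0.66 at 36 h, against 1.39 ± 0.17 in sham ganglia (SD, n = 3).

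In the embryo P2rx4 was 63.1, 66.8 and 41.8 at E12.5 and 100.1, 70.5 and 99.4 at E17.5. The ranges were separate but the difference missed the threshold (log2 0.65 ± 0.26 SE, limma adjusted p = 0.0530), and it was called without E17.5 replicate 2 (0.0295), with edgeR (0.0480), with DESeq2 (0.0412) and with 1 spread over all libraries (0.00176). Sham ganglia held 268, 320 and 259, which was 3.14-fold the E17.5 mean (log2 1.65 ± 0.17 SE, limma adjusted p = 1.97e-08). Lesion values of 301, 292 and 314 overlapped sham (log2 0.10 ± 0.10 SE, limma adjusted p = 0.442).

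P2rx5 and P2rx6 encode subunits that give small or no currents as homomers in rodents and are known mainly as partners in mixed channels. Both were higher in adult ganglia than in the embryo. P2rx6 was 11.0, 8.99 and 7.21 at E12.5, 37.6, 28.2 and 34.7 at E17.5, and 453, 503 and 435 in sham ganglia. It was higher at each stage than at the one before, with a log2 difference of 1.79 ± 0.32 SE (limma adjusted p = 0.00129) in the embryo and of 3.76 ± 0.24 SE (limma adjusted p = 9.56e-12) between E17.5 and the sham adult. In the embryonic fit it passed the filter only through its E17.5 values, so that call is a description.

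After lesion P2rx6 was 256, 261 and 251, a fall to 0.552 of the sham mean with no overlap (log2 -0.85 ± 0.09 SE, limma adjusted p = 1.04e-05). This was the only member still called after lesion with 1 spread over all 24 libraries. At 6 h in culture it was 169, 236 and 236, also below all sham libraries (log2 -1.13 ± 0.24 SE, limma adjusted p = 5.95e-04). From there it ran between 137 and 306 with overlapping times, and 36 against 6 h was not called (log2 -0.20 ± 0.28 SE, limma adjusted p = 0.572), with a log2 difference of 0.01 without 36 h replicate 1. Its exons overlap those of Slc7a4 on the opposite strand over 554 bases, and the sources used here name no strand setting for the counting. Slc7a4 stood at a mean of 27.9 at E12.5, 334 at E17.5, 276 after sham surgery, 227 after lesion, 174 at 6 h and 64.4 at 36 h, and the part of its reads in the P2rx6 values was not tested. Beside P2rx6 and P2rx5, markers of myelinating Schwann cells were higher in sham ganglia than at E17.5 for 9 of 9 genes (summed level 86865 against 12110). At 6 h 8 of 9 were lower than in sham ganglia and 1 was higher (26842). After lesion, where P2rx6 was lower, 1 of 9 was higher, 0 were lower and 8 were not called (84758). The part of these cells was not tested.

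P2rx5 was 1.65, 3.21 and 2.88 at E12.5 and 13.6, 7.05 and 4.62 at E17.5, behind which stood 2 to 31 reads. Sham ganglia held 138, 148 and 147, a 17.2-fold higher mean than E17.5 (log2 4.06 ± 0.31 SE, limma adjusted p = 1.41e-10). P2rx5 passed the filter of that fit only through adult libraries, so this call is a description. Lesion values of 140, 95.2 and 116 overlapped sham and were not called (log2 -0.32 ± 0.15 SE, limma adjusted p = 0.0965), except without lesion replicate 1 (0.0284). In culture it was 67.5, 72.0 and 106 at 6 h, below sham (log2 -0.84 ± 0.31 SE, limma adjusted p = 0.0291), a call lost in 5 of the 6 fits without 1 of these libraries (0.0557 to 0.104, the highest without 6 h replicate 1). At 36 h it was 87.3, 104 and 145, overlapping 6 h (limma adjusted p = 0.177).

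Of the P2Y genes, P2ry1 fell with time in culture. Its receptor responds to ADP and raises intracellular calcium in neurons and glia. It was 1033, 892 and 1227 at 6 h, 631, 423 and 526 at 12 h, 325, 284 and 383 at 24 h, and 202, 104 and 222 at 36 h. Each time lay wholly below the one before, down to 0.167 of the 6 h mean (log2 -2.64 ± 0.24 SE, limma adjusted p = 4.33e-07). The step from 6 to 12 h was called at 0.501 of the 6 h mean (limma adjusted p = 0.0154), though not without 6 h replicate 3 (0.0763) or 12 h replicate 2 (0.0716). That from 12 to 24 h was not called (log2 -0.66 ± 0.24 SE, limma adjusted p = 0.0923), but was without 36 h replicate 2 (0.0234). The step from 24 to 36 h was called (log2 -0.97 ± 0.24 SE, limma adjusted p = 0.0448) and was lost in 9 of the 12 fits without 1 library, with an adjusted p of up to 0.221 without 24 h replicate 3.

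In tissue, P2ry1 was 112, 109 and 133 at E12.5, and 574, 822 and 640 at E17.5 (log2 2.50 ± 0.17 SE, limma adjusted p = 5.56e-06). Sham ganglia held 1249, 1108 and 1266 (log2 0.84 ± 0.22 SE over E17.5, limma adjusted p = 0.00228), the highest mean of any group, and the 6 h cultures overlapped them (limma adjusted p = 0.452). After lesion it was 718, 1074 and 802, each below each sham library (log2 -0.50 ± 0.13 SE, limma adjusted p = 0.00942, and 0.130 with 1 spread over all 24 libraries). The 36 h cultures overlapped the E12.5 libraries. The summed level of neuronal markers was 96963 at 6 h, 80154 at 12 h, 59148 at 24 h and 59339 at 36 h. It was 156098 after sham surgery and 170658 after lesion, and the part of neurons in the P2ry1 values was not tested. The P2ry1 exons share 992 bases with Gm37035 on the opposite strand, for which the table has no row.

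P2ry2, whose receptor responds to ATP and UTP, went the other way after plating. It was 14.8, 16.7 and 12.3 at E12.5 and 306, 250 and 345 at E17.5, the largest embryonic difference among the members at 20.6-fold (log2 4.27 ± 0.22 SE, limma adjusted p = 1.46e-06). Sham values of 361, 343 and 336 and lesion values of 395, 461 and 316 overlapped (log2 0.16 ± 0.12 SE, limma adjusted p = 0.320, and 0.0391 without lesion replicate 3). At 6 h in culture it was 730, 669 and 536, above all sham libraries (1.86-fold, log2 0.88 ± 0.17 SE, limma adjusted p = 1.67e-04). It was the only one of the 7 tested members called higher at that point.

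Later values of P2ry2 were 627, 787 and 805 at 12 h, 947, 854 and 654 at 24 h, and 848, 943 and 778 at 36 h. The 36 h libraries lay above the 6 h libraries (log2 0.42 ± 0.16 SE, limma adjusted p = 0.0426), but the F test over the 4 times did not call the gene (limma adjusted p = 0.157). The call was lost with no filter (0.0628) and without 6 h replicate 2 (0.0610), 6 h replicate 3 (0.186), 24 h replicate 2 (0.0537), 36 h replicate 1 (0.0802) or 36 h replicate 2 (0.142). Per kb, P2ry1 stood at 3.19 ± 0.25 times P2ry2 in sham ganglia, 2.04 ± 0.34 after lesion, 1.54 ± 0.49 at 6 h, and 0.193 ± 0.083 at 36 h (SD, n = 3), and the mean ratio passed below 1 at 12 h, at 0.670 ± 0.223.

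After lesion 11 of 12 macrophage markers were higher, and the part of macrophages in the values given next was not tested. Of the 7 other P2 receptor genes in the table, 4 could be tested there and 3 were higher, against 20.9% of all genes. They were P2ry14, the UDP-glucose receptor, at 139 against 76.6 (log2 0.84 ± 0.19 SE, limma adjusted p = 0.00338, and 0.169 with 1 spread over all 24 libraries), and P2ry6, the UDP receptor, and P2ry13, an ADP receptor, which were named after their values were seen. P2ry6 was 95.3 against 35.4 (log2 1.40 ± 0.18 SE) and P2ry13 54.5 against 20.2 (log2 1.37 ± 0.33 SE). In culture 2 of 5 were higher at 36 h than at 6 h, P2ry12, the ADP receptor of microglia and platelets (149.6 against 40.8, log2 1.93 ± 0.27 SE, limma adjusted p = 3.04e-05), and, named after its values were seen, P2ry6 (37.2 against 6.47). P2ry6 passed the filter of the culture fit only with values of times after 6 h. Its part in that count is a description. At 6 h P2ry12 and P2ry6 lay below sham, among 4 of 7 that were lower and 1 higher, against 24.5% and 23.3% of all genes. In the embryo 3 of 5 were higher at E17.5, P2ry12 among them (log2 1.69 ± 0.23 SE). Of the 7, 3 had a mean under 10 at E12.5 and 2 at E17.5, so this embryonic count depends on the filter and is a description. Of all genes, 31.1% were higher at E17.5 and 25.3% were higher between 6 and 36 h.

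Ectonucleotidases are the surface enzymes that break down ATP to adenosine. From 6 to 36 h in culture 3 of 8 tested were higher and 2 lower, where 25.3% of all genes went each way. Acpp, the phosphatase of nociceptor membranes that makes adenosine from AMP, was 1128 at 36 h against 11010 at 6 h (log2 -3.28 ± 0.14 SE, limma adjusted p = 1.72e-10). Entpd2, a glial ectonucleotidase, was 390 against 68.0 (log2 2.52 ± 0.20 SE) and Entpd1, the CD39 enzyme of macrophages and other cells, 1419 against 354 (log2 2.00 ± 0.13 SE). After lesion 3 of 8 were lower and the others not called, where 20.9% of all genes were higher and 20.2% lower. The lower ones were Entpd3, a neuronal ectonucleotidase (1450 against 2668, log2 -0.88 ± 0.08 SE), Acpp (5139 against 8524, log2 -0.76 ± 0.16 SE) and Nt5e, the CD73 enzyme (log2 -0.33 ± 0.08 SE, limma adjusted p = 0.00405, and 0.211 with 1 spread over all 24 libraries).

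In development 7 of 9 ectonucleotidases were higher at E17.5 than at E12.5 and 1 lower, where 31.1% of all genes were higher and 31.9% lower. Acpp was among the higher ones (log2 6.81 ± 0.20 SE). Entpd2 (507 against 2.20, log2 7.47 ± 0.41 SE) and Entpd3 (208 against 8.55, log2 4.50 ± 0.32 SE) passed the filter only through their E17.5 values. In sham ganglia compared with E17.5, 3 were higher and 4 lower, where 28.1% of all genes were higher and 28.5% lower. Among them were Entpd3 at 3.68 ± 0.19 SE, Nt5e at 1.67 ± 0.17 SE and Alpl at -2.24 ± 0.22 SE on the log2 scale. At 6 h in culture compared with sham, 3 of 9 were lower, with Entpd2 at 68.0 against 248 (log2 -1.87 ± 0.26 SE), and the other 6 were not called. Of all genes, 24.5% were lower there. Of 9 satellite glia markers, 6 were lower and 1 higher in that comparison, and their part was not tested.

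Among the adenosine receptors, which answer the end product of that breakdown, Adora1, the inhibitory receptor of nociceptors, was 137 at E12.5, 454 at E17.5 (log2 1.77 ± 0.23 SE, limma adjusted p = 2.15e-04) and 2904 after sham surgery (log2 2.68 ± 0.19 SE over E17.5, limma adjusted p = 3.90e-11). It was 2197 after lesion (log2 -0.41 ± 0.09 SE, limma adjusted p = 0.00195, and 0.151 with 1 spread over all 24 libraries). Between 6 and 36 h in culture it fell from 2565 to 676 (log2 -1.92 ± 0.17 SE, limma adjusted p = 3.83e-07). It was the 1 of 3 tested adenosine receptors called there, where 25.3% of all genes went each way. Adora2a was lower at E17.5 than at E12.5 (log2 -0.52 ± 0.19 SE, limma adjusted p = 0.0419), a call lost in 5 of 6 fits without 1 library (0.0826 to 0.138), with no filter (0.0538), with DESeq2 (0.0613) and with 1 spread over all 24 libraries (0.108).

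The genes most like each member over the 24 libraries were taken by Pearson's r of log2(value + 1) among 10337 genes with a mean of at least 100, as a description, since libraries of a group share their conditions. For P2rx3 they were Stac (r = 0.988), Avil (0.983), Ret (0.982), Vstm5 (0.981) and Csgalnact1 (0.981), and these values rest much on the low E12.5 group. Over the 21 libraries without E12.5, r was 0.803 for Stac and 0.694 for Csgalnact1 but 0.382 for Ret, 0.122 for Vstm5 and 0.0944 for Avil. Stac was 724 after sham surgery, 1413 after lesion and 1474 to 1769 in culture.

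For P2rx7 the nearest genes were Fam129a (r = 0.983, and 0.968 without E12.5) and Slc31a2 (0.957 and 0.946). Fam129a was 288 at 6 h and 1840 at 36 h, and Slc31a2 343 and 1060. The nearest to P2ry1 were Pja2 (0.980 and 0.967) and Araf (0.972 and 0.963), and to P2ry2 they were Slc4a11 (0.984 and 0.880) and Cd44 (0.983 and 0.922), the latter at 4397 after sham surgery and 16429 at 6 h. For P2rx4 they were G6pc3 (0.981 and 0.970) and Ctsd, the lysosomal protease cathepsin D (0.980 and 0.974). P2rx5 had Slc8a3 (0.978 and 0.948) and Got1 (0.977 and 0.970), and P2rx6 had Abhd12 (0.989 and 0.979) and Ankrd35 (0.984 and 0.976).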

How the data were processed

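RNA-seq values were deposited by the authors as 1 table of 20782 genes by 24 libraries, all of which were mapped to samples by their descriptions (0 columns were left over). The submitters' processing notes name TopHat and mm10. The sources used here name no annotation, counting tool or strand setting. The deposited signal values were read counts divided by 1 factor per library, as read from the values: all of 339603 values checked (100%) were whole multiples of 1 step within a tolerance of 0.1 read, up to 1000 reads. The design had named a test for normalized values, which was used.

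Tests used limma 3.58.1 (R 4.3.3, eBayes with trend and robust) on log2(value + 1), with a pseudocount of 1, for genes with a value of at least 10 in at least 3 libraries of the fit, adjusted by Benjamini-Hochberg with a threshold of 0.05. The embryonic, lesion and culture fits used their own libraries; 6 h culture against sham and sham against E17.5 used all 24. Alternatives were edgeR 4.0.16 and DESeq2 1.42.0 on the recovered whole reads, TMM scaling, a pseudocount of 5, no filter, other sets of libraries and leaving out each library. The scripts were tested on simulated data. Depth limits the low genes, P2rx2 and embryonic P2rx5 above all. SD and SE cover the spread between libraries.

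Members and gene lists were chosen with earlier results of these data known, and 1 gene of the nociceptor list is not reported here and was left out of its counts. Named pathway genes were those called, without overlap and with a higher mean of at least 100, up to 3 per list and comparison. Exon lengths are unions of annotated exons (GENCODE M21), known for 19529 genes. Overlaps of the groups' ranges, not tests, order levels between groups.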

Additional observations from a re-analysis of the deposited data

How the results depend on the processing

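The alternatives were edgeR, DESeq2, TMM scaling, a pseudocount of 5, no filter, another set of libraries for the spread, and leaving out each library in turn. With 1 spread over all 24 libraries the lesion comparison called 1581 genes higher and 1034 lower (against 3043 and 2947), and 0 members higher and 1 lower (against 2 and 2). From 12 to 24 h, members called lower were 2 with DESeq2 and 2 with 1 spread over all libraries (against 1), and 0 to 2 with a library left out. From 6 to 12 h, members called lower were 0 to 1 with a library left out. From 24 to 36 h, 0 members were called higher and 0 lower with no filter, and 0 to 1 each with a library left out. Sham against E17.5 had 1 member called lower (P2rx3, against 0) with TMM scaling, edgeR, DESeq2 and a fit of only these groups. P2rx2 from 24 to 36 h turned from -0.04 to 0.0165 with a pseudocount of 5 and 0.76 with edgeR, and ran from -0.41 to 0.55 with a library left out, while DESeq2 gave no adjusted p. P2rx6 from 6 to 36 h ran from -0.40 to 0.01478 with a library left out. The cause of these changes was not tested. P2rx5 in the embryo, untested for its low values, had a log2 difference of 1.31 (adjusted p = 0.0498) with no filter. TMM scaling moved the median of all genes by at most 0.035 on the log2 scale. Of the other alternative values of single genes, 1465 kept their direction and their side of the threshold. No paired analysis was possible because the labels give each library a number of its own and no pairing. Taking the library numbers as a block in the lesion comparison (2 sham and 2 lesion libraries numbered 69 to 75, 1 of each numbered 123 and 124) changed no call of a member.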

Other observations

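Of the genes for the release of ATP, 4 of 6 tested were higher at E17.5 than at E12.5, where 31.1% of all genes were higher. Of the 7 genes of this list, 2 had a mean under 10 at E12.5 and 1 at E17.5. That count thus depends on the filter and is a description. Gjc3, a connexin of glia, was 528 against 20.3 (log2 4.92 ± 0.52 SE, limma adjusted p = 5.64e-05), Panx2, a pannexin of neurons, 479 against 53.2 (log2 3.06 ± 0.29 SE), and Panx1, the ATP release channel, 1009 against 682 (log2 0.57 ± 0.13 SE). From 6 to 36 h in culture 2 of 5 were higher and 1 lower, where 25.3% of all genes went each way. Gjc3 rose from 226 to 1115 (log2 2.29 ± 0.20 SE) and Lrrc8a, a subunit of the volume-regulated anion channel, from 1303 to 2389 (log2 0.88 ± 0.17 SE). Gja1, the connexin 43 gene, was 1244 against 1568 (log2 -0.33 ± 0.12 SE, limma adjusted p = 0.0313), a call lost without 6 h replicate 1 (0.134), 6 h replicate 3 (0.0750), 36 h replicate 1 (0.0796) or 36 h replicate 3 (0.0924). Against sham ganglia, the 6 h cultures held less Gjc3 (226 against 986, log2 -2.13 ± 0.35 SE) and more Gja1 (1568 against 897, log2 0.80 ± 0.11 SE), among 2 higher and 2 lower of 6. Of all genes, 23.3% were higher and 24.5% lower in that comparison. Panx2 was lower there (722 against 1297, limma adjusted p = 0.0208), a call lost in 4 of the 6 fits without 1 of these libraries (0.0510 to 0.0828). After lesion 2 of 5 were higher and 2 lower, where 20.9% of all genes were higher and 20.2% lower. Lrrc8a was 1867 against 1406 (log2 0.41 ± 0.08 SE), Panx2 931 against 1297 (log2 -0.47 ± 0.08 SE) and Gja1 718 against 897 (log2 -0.32 ± 0.08 SE). With 1 spread over all 24 libraries, the adjusted p of these 3 was 0.0655, 0.312 and 0.0544. In sham ganglia against E17.5, 3 of 6 were higher and 2 lower, where 28.1% of all genes were higher and 28.5% lower. Here too 2 genes of the list had a mean under 10 in sham ganglia and 1 at E17.5, so these counts are a description. Panx2 was higher (log2 1.52 ± 0.30 SE) and Gja1 lower (897 against 2934, log2 -1.71 ± 0.11 SE). Gjc3 was higher too (log2 0.93 ± 0.35 SE, limma adjusted p = 0.0258), a call lost in 4 of the 6 fits without 1 of these libraries (0.0512 to 0.0946).

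Of the genes that take up and clear nucleosides, Adk, the adenosine kinase gene, was 2010 in sham ganglia and 360 at E17.5 (log2 2.47 ± 0.15 SE, limma adjusted p = 3.69e-12). It was 1109 after lesion (log2 -0.87 ± 0.10 SE, limma adjusted p = 1.74e-05), and in culture it fell from 1999 at 6 h to 439 at 36 h (log2 -2.19 ± 0.16 SE, limma adjusted p = 4.62e-08). Between E12.5 and E17.5 it was called higher (log2 0.46 ± 0.16 SE, limma adjusted p = 0.0303), but not in 4 of the 6 fits without 1 library (0.0516 to 0.146). Slc29a2, a nucleoside transporter, was higher after lesion (240 against 122, log2 0.96 ± 0.14 SE) and at 36 h against 6 h (428 against 154, log2 1.46 ± 0.18 SE). In all, 4 of 6 genes of this list were higher and 2 lower after lesion, where 20.9% of all genes were higher and 20.2% lower. Of the 9 genes listed, 4 had a mean under 10 after sham surgery and 3 after lesion. These counts thus depend on the filter and are a description. Between 6 and 36 h in culture 3 of 6 were higher and 1 lower, where 25.3% of all genes went each way. Slc28a2, among the higher (38.2 against 4.94), passed the filter only with values of times after 6 h. Its part in that count is a description. Slc29a3, a transporter of intracellular membranes, was 1144 at 36 h against 687 at 6 h (log2 0.74 ± 0.12 SE), and 687 at 6 h against 920 in sham ganglia (log2 -0.42 ± 0.11 SE). Slc29a4, a monoamine and adenosine transporter, was 662 after lesion against 421 after sham surgery (log2 0.65 ± 0.10 SE, and adjusted p = 0.0736 with 1 spread over all 24 libraries).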
